A study of Rattus norvegicus with 12 samples.

Results

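Interferon-stimulated genes are the genes that a cell switches on when type I interferon reaches its receptor. The genes described here are the 55 Ensembl identifiers of a list of type I interferon response genes, which draws on the ISG15, MX, OAS, IFIT, IFI, IFITM, GBP, HERC, PARP, SAMD9, STAT and IRF families and on RNA sensors. All 55 were present among the 20263 genes of the 3 full tables, and membership was set by identifier, although the list was drawn up with earlier results of these data known, so that a count over it is no independent evidence. Which of them have normal-glucose values was another matter: those 6 were selected on the authors' own contrast of HG against Ctrl. The files do not pair identifiers with gene names, and none of the 55 matched the gene table at hand, so members are given by identifier and no single member is assigned a name or a role.

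Type I interferons are secreted proteins that bind a cell-surface receptor and activate Janus kinases. These kinases phosphorylate STAT proteins, which join an IRF protein in a complex that binds response elements in the promoters of the target genes. The products of those genes include sensors of foreign RNA, enzymes and GTPases that block viral replication, the ubiquitin-like modifier system around ISG15, and the STAT and IRF factors themselves, so that the response feeds back on itself. Many cells keep a low level of these transcripts without infection.

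RNA was sequenced from H9C2 cells by their label, cardiac myoblasts that were established from a rat embryo, in 4 groups of 3 biological replicates, all wild type and all harvested after 48 h. HG-Res-SIRT7-Inh cells received 100 mM D-glucose, resveratrol at 5 µM and the labelled SIRT7 inhibitor at 5 µM, which the protocol names as SirReal2, known mainly as an inhibitor of SIRT2. HG-Res cells received 100 mM glucose and 5 µM resveratrol, HG cells 100 mM glucose alone, and Ctrl cells 5.5 mM glucose. The labels describe no inhibitor-alone group, vehicle or osmotic control, and all 20263 identifiers carry the human Ensembl prefix, which goes against the rat label. Whether the transcripts are those of rat or human cells was not settled, and the labelled cell type, cardiomyocytes, was not checked against markers, since no identifier could be named.

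Levels are in CPM, a gene's reads scaled to a fixed library total, without scaling by gene length, so a level is compared between libraries and never with another gene. The depth estimated from the size of 1 read was 30.25 to 33.33 M reads per library (M for 1e6). Tests covered the 12854 genes that reached 0.5 CPM in 3 or more of the 9 libraries at high glucose, and "rose" or "fell" below means a Benjamini-Hochberg adjusted p under 0.05 in limma over all of them. Of the 55 members 54 were tested. ENSG00000213928 stayed below the filter, at 0.06 to 0.34 CPM over the 9 libraries, and ENSG00000134326 passed it through the 3 HG-Res libraries alone. That member stood at 0.13, 0.16 and 0.13 CPM in HG-Res-SIRT7-Inh, 0.57, 0.54 and 0.72 CPM in HG-Res and 0.22, 0.21 and 0.45 CPM in HG. Because the filter kept it for its high group, its call as lower with the inhibitor than in HG-Res (limma adjusted p = 0.0206) carries no weight, nor does its place in the counts of members that separate HG-Res from another group. Replicates were biological by their labels, and 2 libraries stood apart from their groups, HG-Res-SIRT7-Inh replicate 3 and HG replicate 2. The median SD between replicates on the log2 scale over all tested genes was 0.242 in HG-Res-SIRT7-Inh, 0.071 in HG-Res and 0.132 in HG. Over the members it was 0.242, 0.055 and 0.141. The main counts are therefore given with and without these 2 libraries.

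**Figure D1:**
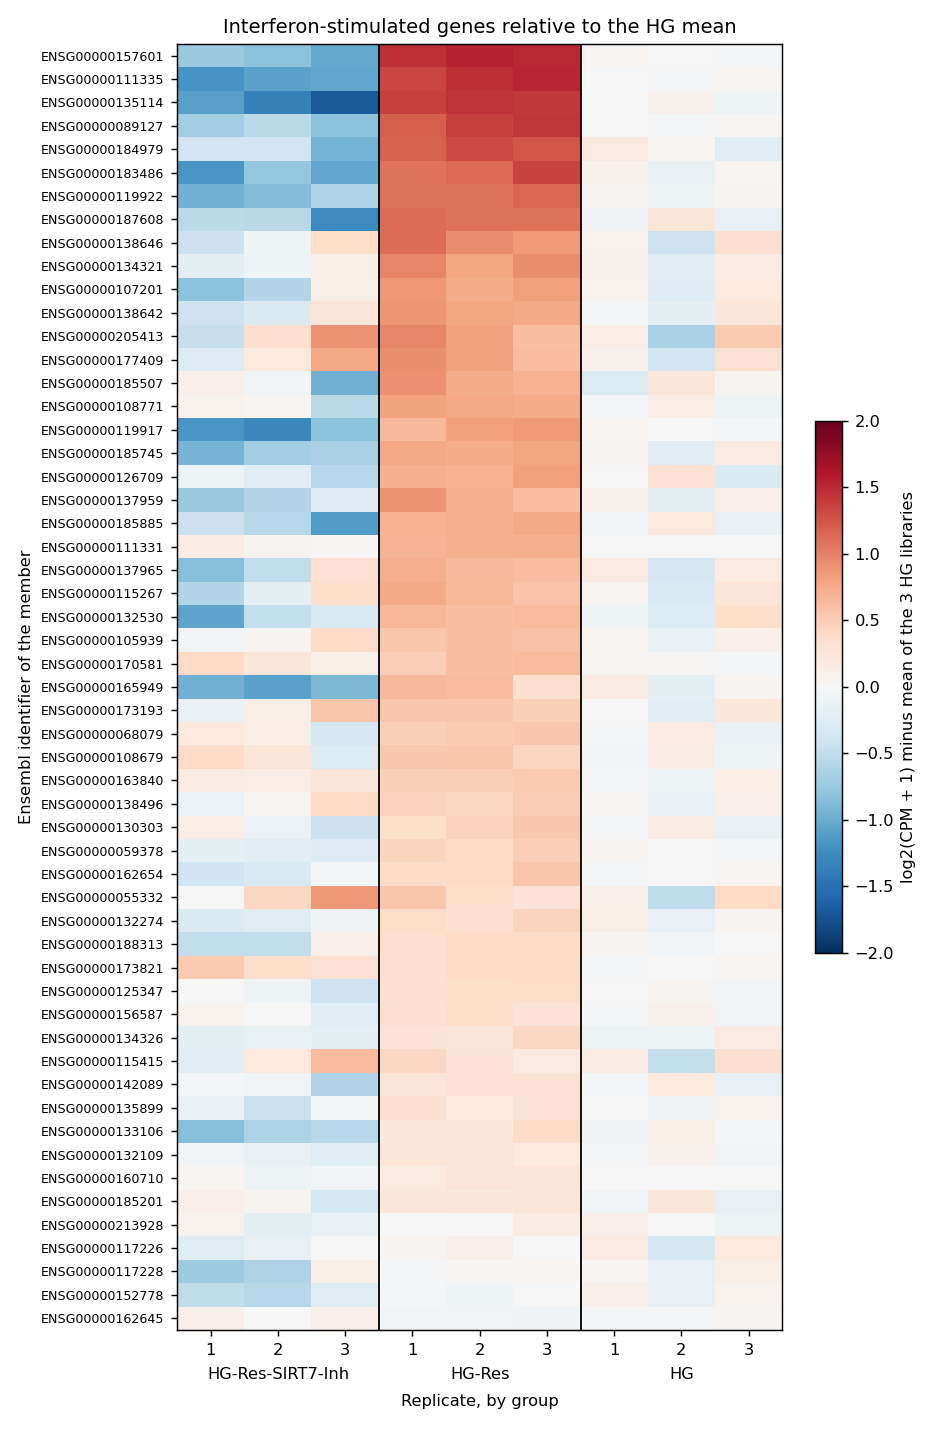
Level of each of the 55 members (rows, by identifier) in the 9 high-glucose libraries (columns, by group and replicate), as log2(CPM + 1) minus the mean of the 3 HG libraries. Rows are sorted by their mean in HG-Res, where 52 of the 54 tested members lay above HG, while in HG-Res-SIRT7-Inh 41 lay below HG and 13 above.

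Resveratrol was accompanied by a higher level of nearly the whole list. Against HG, 52 of the 54 tested members had a higher mean in HG-Res and 2 a lower one, where 49.9% of all tested genes were higher and 50.1% lower. In 48 members every HG-Res library lay above every HG library and in 1 every one lay below, against 15.0% and 14.8% of all tested genes. In limma with Benjamini-Hochberg adjustment 13 members rose and 0 fell, whereas 0.327% of all tested genes rose and 0.381% fell. At an unadjusted p under 0.05, 46 members were higher and 0 lower, beside 4.99% and 5.66% of all tested genes. By the q-values of the authors' deposited table, under 0.05, there were 42 members higher and 0 lower, beside 2.97% and 2.41% of their genes. The median log2 change of the tested members was 0.56, beside -0.001 for all tested genes. In bulk RNA, more cells expressing a gene and more of its RNA per cell cannot be told apart, and likewise for fewer cells and less RNA.

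The members made up 13 of the 42 genes that rose with resveratrol, 31%, and 24.1% of the tested members rose. They held 9 of the 20 places with the largest called rises, where 54 of the 12854 tested genes were members. Of the 10 genes that rose at least 2-fold, 0.0778% of those tested, 8 were members, and none of the 0.0934% that fell as far was one.

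The largest rise among the members was that of ENSG00000157601, at 67.3, 71.2 and 70.0 CPM in HG-Res, against 24.6, 23.7 and 23.5 CPM in HG. Replicates differed by little in either group, and the ratio of the means was 2.9 (log2 change 1.5 ± 0.10 SE, limma adjusted p = 0.000276). ENSG00000111335 stood at 30.9, 34.3 and 35.4 CPM in HG-Res, against 11.5, 11.3 and 12.1 CPM in HG. All HG-Res libraries were far above all HG libraries, and the log2 change was 1.45 with an SE of 0.10 (limma adjusted p = 0.000276). ENSG00000135114 reached 179.9, 191 and 187 CPM in HG-Res, against 69.7, 73.7 and 65.0 CPM in HG, which is 1.41 ± 0.14 higher on the log2 scale (SE, limma adjusted p = 0.00257). ENSG00000089127 was at 19.4, 21.9 and 23.1 CPM in HG-Res, against 7.92, 7.69 and 8.07 CPM in HG, and its ratio of means, 2.72, was close to those of the others. ENSG00000183486 and ENSG00000119922 also rose, to means of 11.8 ± 1.32 and 80.6 ± 1.94 CPM in HG-Res, against 4.62 ± 0.437 and 37 ± 2.17 CPM in HG (SD, n = 3).

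The calls of these 6 members held under all 17 alternative fits that give a fold change, whereas those of the next members were less firm. ENSG00000184979 was at 18.7, 20.6 and 19.9 CPM in HG-Res, against 8.87, 7.99 and 6.43 CPM in HG. Its groups were well apart (log2 change 1.25 ± 0.17 SE, limma adjusted p = 0.0111), yet the adjusted p was 0.0659, 0.0831 and 0.082 without HG-Res replicates 1, 2 and 3 in turn, and 0.0556 without HG replicate 3. ENSG00000187608 was at 499, 487 and 488 CPM in HG-Res, against 218, 270.1 and 204 CPM in HG. It rose by 1.10 ± 0.19 on the log2 scale (SE, limma adjusted p = 0.0392). Its adjusted p was 0.0627 without replicate 2 of HG-Res-SIRT7-Inh, 0.199 and 0.172 without HG replicates 1 and 3, 0.205, 0.192 and 0.17 without each HG-Res replicate, and 0.106 with no filter.

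**Figure D2:**
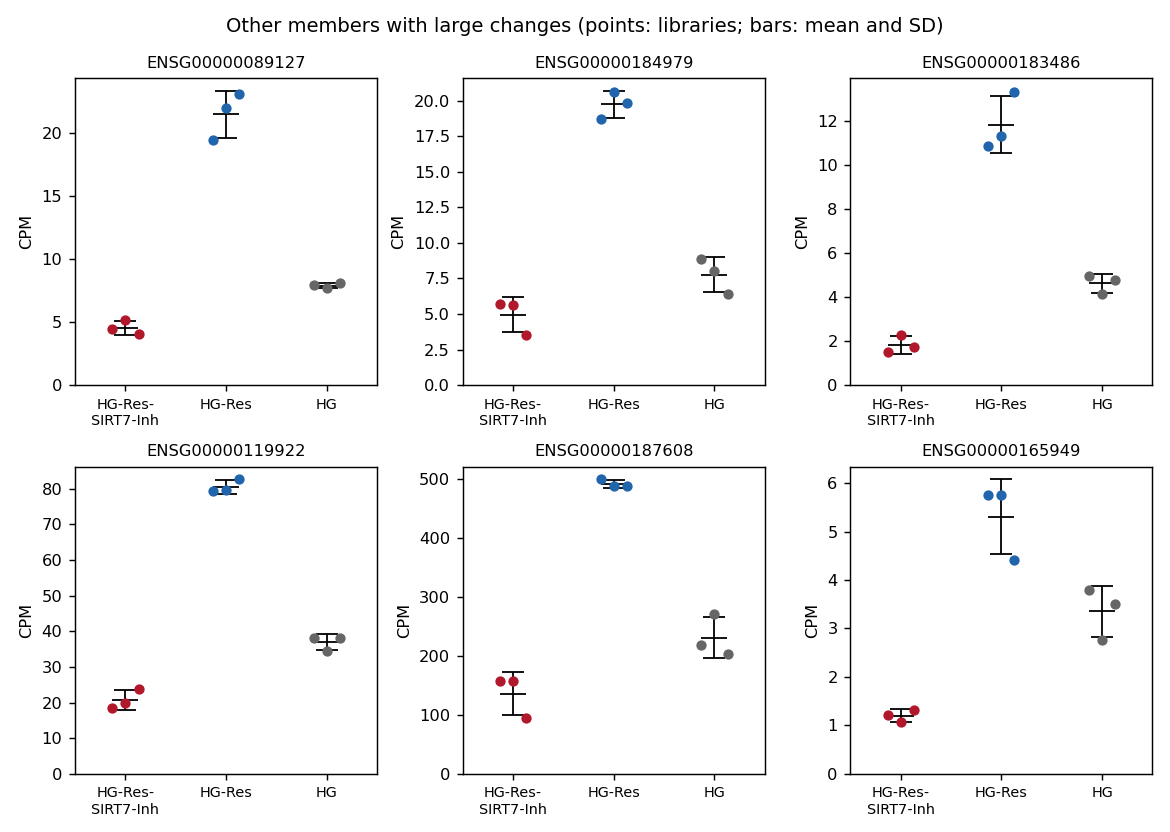
CPM of 6 members without normal-glucose values in HG-Res-SIRT7-Inh, HG-Res and HG (points: libraries, bars: mean and SD, n = 3, axes from 0). In each panel the 3 HG-Res libraries lie above all other libraries. ENSG00000187608 and ENSG00000184979 show the wider spread within HG-Res-SIRT7-Inh, and within HG these and ENSG00000165949 do.

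The other 5 members that rose changed by less than 2-fold on the fitted scale. ENSG00000134321, at a low level in every library, had 4.52, 3.83 and 4.32 CPM in HG-Res, against 1.98, 1.36 and 2.12 CPM in HG (log2 change 0.90 ± 0.13 SE, limma adjusted p = 0.0181). ENSG00000111331 had one of the tightest HG groups, 69.2, 69.5 and 69.1 CPM, against which HG-Res stood at 112, 114 and 114 CPM (limma adjusted p = 0.00832). ENSG00000185745, ENSG00000119917 and ENSG00000170581 completed the 13, with ratios of means of 1.71, 1.72 and 1.5. All 5 lost their calls without any 1 HG-Res library and without HG replicate 1. The adjusted p of ENSG00000111331 was 0.0659, 0.0835 and 0.082 without HG-Res replicates 1, 2 and 3, 0.0856 without HG replicate 1 and 0.0546 without HG replicate 3. That of ENSG00000134321 lay between 0.0822 and 0.126 in its 4 such fits. ENSG00000185745 and ENSG00000170581 lost their calls without any 1 HG or HG-Res library, and also without replicate 2 of HG-Res-SIRT7-Inh (0.0632 and 0.0987). The adjusted p of ENSG00000119917 was 0.0309 with all libraries, between 0.095 and 0.197 without any 1 of the HG or HG-Res libraries, and 0.0549 with no filter.

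Some members with mean differences of similar size did not pass. ENSG00000138646 was at 50.7, 44.6 and 41.6 CPM in HG-Res, against 23.8, 16.9 and 29.1 CPM in HG (limma adjusted p = 0.121). ENSG00000205413 was at 66.1, 59.0 and 50.6 CPM in HG-Res, against 36.2, 20.7 and 47.7 CPM in HG (limma adjusted p = 0.46). In both, HG replicate 2 was the lowest of the 6 libraries and the groups did not overlap. The HG-Res-SIRT7-Inh libraries, which enter the same estimate of the spread, ranged more widely still in ENSG00000205413, at 23.8, 42.0 and 62.1 CPM. ENSG00000108771 did not pass either, with a tight HG group, at 18.0, 17.6 and 17.1 CPM in HG-Res, against 9.62, 10.9 and 9.13 CPM in HG (limma adjusted p = 0.0777).

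At the other end of the list, 4 members had nearly the same mean in both groups. ENSG00000162645 was at 15.8, 15.8 and 15.5 CPM in HG-Res, against 15.9, 16.2 and 17.2 CPM in HG, so that its HG-Res libraries were all slightly lower. ENSG00000152778, ENSG00000117228 and ENSG00000117226 had ratios of means of 0.975, 1.00 and 1.02, with overlapping groups. The log2 changes of these 3 turned in sign under some of the fits that left libraries out, and that of ENSG00000117226 was 0.05 with all libraries but -0.13 without the 2 that stood apart. The 4 limma adjusted p-values ran from 0.905 to 0.997, which does not show that these genes were unaffected.

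The number of members past the threshold for HG-Res against HG depended on which libraries set the spread. With only the libraries of these 2 groups in the fit 35 members rose and 0 fell, beside 2.47% and 2.16% of all tested genes. Leaving out HG-Res-SIRT7-Inh replicate 3 gave 39 that rose and 0 that fell, beside 3.28% and 2.96%, and leaving out HG replicate 2 as well gave 44 and 0, beside 11.2% and 10.0%. Without HG-Res replicates 1, 2 and 3 in turn 6 members rose each time, beside 0.0778%, 0.07% and 0.07% of all tested genes. Without HG replicate 1 or 3 it was 7 members, beside 0.0778% and 0.0856%. The 8 members at 2-fold or more kept their calls without the 2 libraries that stood apart, with log2 changes between 1.06 and 1.49. That fit called 11.2% of all tested genes as risen, against 0.327% with all libraries, so keeping a call there is weak support. ENSG00000184979 and ENSG00000187608 lost theirs in other fits, as given above.

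**Figure D3:**
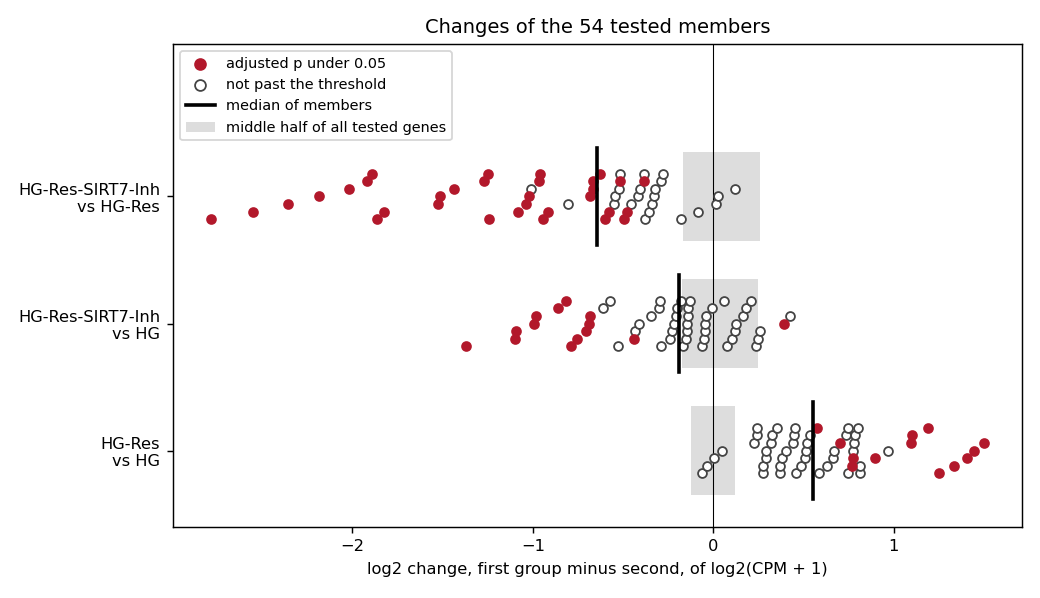
Log2 change of each of the 54 tested members in 3 comparisons (rows), with filled points for an adjusted p under 0.05, a black bar at the members' median and a grey band between the quartiles of all tested genes. The members' medians were -0.64, -0.19 and 0.56 from the upper row to the lower one, and 32, 15 and 13 points are filled.

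Adding the inhibitor to resveratrol went with lower levels in most of the list. In HG-Res-SIRT7-Inh, 51 of the 54 tested members had a lower mean than in HG-Res and 3 a higher one, where 45.0% of all tested genes were lower and 55.0% higher. In 45 members every HG-Res-SIRT7-Inh library lay below every HG-Res library and in 1 every one lay above, against 16.0% and 17.7% of all tested genes. In limma with Benjamini-Hochberg adjustment 32 members fell and 0 rose, where 4.19% of all tested genes fell and 1.88% rose. The 32 include ENSG00000134326, and without it 31 of 53 fell. At an unadjusted p under 0.05 the counts were 44 lower and 0 higher, beside 12.0% and 12.7% of all tested genes. By the q-values of the authors' deposited table, under 0.05, there were 38 lower and 0 higher, beside 3.49% and 2.16% of their genes. The members' median log2 change was -0.64, beside 0.04 for all tested genes. This comparison shares its HG-Res libraries with the one before it, so the 2 sets of values are not independent of each other.

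Members took 7 of the 20 places with the largest called falls, and made up 5.95% of the 538 genes that fell. Of the 12854 tested genes, 54 were members. Falls of at least 2-fold were called in 18 members and such rises in 0, against 0.926% and 0.101% of all tested genes.

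The largest fall among the members was that of ENSG00000135114, at 32.1, 26.6 and 21.0 CPM in HG-Res-SIRT7-Inh, against 179.9, 191 and 187 CPM in HG-Res. Its mean was 7-fold lower (log2 change -2.78 ± 0.14 SE, limma adjusted p = 6.73e-06). ENSG00000111335 was at 4.57, 5.01 and 5.12 CPM in HG-Res-SIRT7-Inh, against 30.9, 34.3 and 35.4 CPM in HG-Res, 6.85-fold lower in the means (log2 change -2.55, SE 0.10, limma adjusted p = 3.21e-06). Neither gene had groups that came near to overlapping. ENSG00000157601 was at 13.9, 13.2 and 11.3 CPM in HG-Res-SIRT7-Inh, against 67.3, 71.2 and 70.0 CPM in HG-Res, 5.43-fold lower (limma adjusted p = 3.89e-06). ENSG00000183486 was at 1.5, 2.28 and 1.72 CPM in HG-Res-SIRT7-Inh, against 10.9, 11.3 and 13.3 CPM in HG-Res, 6.46-fold lower by its means. ENSG00000089127, ENSG00000119922 and ENSG00000119917 were lower by 4.72-fold, 3.89-fold and 3.66-fold, again without overlap.

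In ENSG00000187608 the inhibitor libraries were uneven, at 157, 156 and 93.6 CPM in HG-Res-SIRT7-Inh, against 499, 487 and 488 CPM in HG-Res. All 3 were nonetheless far below HG-Res, and it fell by 1.89 ± 0.19 on the log2 scale (SE, limma adjusted p = 0.000525). The falls of these 8 members were called under all 17 alternative fits that give a fold change. Without the 2 libraries that stood apart their log2 changes lay between -2.63 and -1.64.

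The members that changed least here included ENSG00000115415, which was at 169, 224 and 305 CPM in HG-Res-SIRT7-Inh, against 259.8, 238 and 221 CPM in HG-Res (limma adjusted p = 0.833). Its inhibitor libraries spanned both sides of HG-Res. ENSG00000055332 was at 38, 51.0 and 69.8 CPM in HG-Res-SIRT7-Inh, against 56.5, 48.9 and 46.5 CPM in HG-Res, and likewise overlapped. Its log2 change was 0.03 with all libraries and -0.19 without the 2 that stood apart. ENSG00000162645 was at 17.7, 16.2 and 17.7 CPM in HG-Res-SIRT7-Inh, against 15.8, 15.8 and 15.5 CPM in HG-Res. It was the only tested member in which every inhibitor library lay above every HG-Res library, and it did not pass (limma adjusted p = 0.403).

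The count of 32 became 43 when HG-Res-SIRT7-Inh replicate 3 was left out, with 0 that rose, beside 5.69% and 3.45% of all tested genes. With HG replicate 2 also left out 48 fell and 0 rose, beside 9.15% and 9.62%. These counts are 42 and 47 without ENSG00000134326. The count was 21, beside 2.2%, when HG-Res-SIRT7-Inh replicate 2 was the one left out. Leaving out HG-Res replicates 1, 2 and 3 in turn gave 20, 21 and 20, beside 1.82%, 1.78% and 1.77%.

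Set against high glucose alone, resveratrol with the inhibitor went with lower means in most of the list, though most of these differences did not pass. Of the 54 tested members 41 had a lower mean in HG-Res-SIRT7-Inh than in HG and 13 a higher one, where 45.4% of all tested genes were lower and 54.6% higher. In limma with Benjamini-Hochberg adjustment 14 members fell, 25.9%, beside 6.5% of all tested genes, and 1 member rose, beside 4.27%. The 15 are to be read against 10.8% of all tested genes called in either direction. In 18 members all inhibitor libraries were below all HG libraries and in 4 all were above, against 15.3% and 12.8% of all tested genes. The upward share was thus near that of all genes or under it. The median log2 change was -0.19 for the members and 0.038 for all tested genes. None of the 20 largest called falls was a member.

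ENSG00000135114 had the largest fall here too, at 32.1, 26.6 and 21.0 CPM in HG-Res-SIRT7-Inh, against 69.7, 73.7 and 65.0 CPM in HG (log2 change -1.37 ± 0.14 SE, limma adjusted p = 0.00042). ENSG00000111335 was at 4.57, 5.01 and 5.12 CPM in HG-Res-SIRT7-Inh, against 11.5, 11.3 and 12.1 CPM in HG, 2.38-fold lower (limma adjusted p = 0.000155). ENSG00000119917 was at 49.1, 44.8 and 62.2 CPM in HG-Res-SIRT7-Inh, against 114, 109.6 and 109 CPM in HG, 2.13-fold lower (limma adjusted p = 0.000865). These 3 were the members with a called change of at least 2-fold on the fitted scale, where 1.02% of all tested genes fell and 0.194% rose as far. ENSG00000165949, at a low level in both groups, was at 1.22, 1.06 and 1.32 CPM in HG-Res-SIRT7-Inh, against 3.80, 2.77 and 3.5 CPM in HG. Its mean was 2.80-fold lower, while the fitted log2 change was -0.98 ± 0.13 (SE, limma adjusted p = 0.00167), since adding 1 CPM before the log shrinks the changes of low genes.

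ENSG00000157601, ENSG00000183486, ENSG00000119922 and ENSG00000187608 fell as well, by 0.86, 0.99, 0.81 and 0.79 on the log2 scale. The last of these calls was lost without HG replicate 1 or 2 (limma adjusted p = 0.0874 and 0.0983), without HG-Res replicates 1, 2 or 3 (0.06, 0.059 and 0.0597), with no filter (0.0906) and with the 2 groups alone (0.114). Without the 2 libraries that stood apart the change of ENSG00000187608 was -0.42, against -0.79 with all libraries. The other 7 of the 8 members with the largest non-overlapping falls were called in every alternative fit.

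The member that rose was ENSG00000173821, at 23.8, 21.0 and 20.3 CPM in HG-Res-SIRT7-Inh, against 15.9, 16.3 and 16.7 CPM in HG (log2 change 0.39 ± 0.10 SE, limma adjusted p = 0.0335). In HG-Res it stood at 20.9, 21.5 and 21.6 CPM, overlapping with the inhibitor group. The call of ENSG00000173821 was lost without replicate 2 of HG-Res-SIRT7-Inh (limma adjusted p = 0.085), without any 1 HG-Res or HG library (0.0675 to 0.131) and with the 2 groups alone (0.149). Its q-value in the authors' deposited table was 0.0867. ENSG00000111331, which had risen with resveratrol, was at 77.1, 72.4 and 70.3 CPM in HG-Res-SIRT7-Inh, against 69.2, 69.5 and 69.1 CPM in HG. Its mean was thus 1.06 times that of HG, and the difference did not pass (limma adjusted p = 0.579).

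The count of 15 members became 23 when HG-Res-SIRT7-Inh replicate 3 was left out, of which 20 fell and 3 rose, beside 10.5% and 10.7% of all tested genes. It was 29 with HG replicate 2 left out too, of which 25 fell and 4 rose, beside 14.4% and 16.6%. In a fit of these 2 groups alone 10 fell and 0 rose, beside 2.44% and 0.825%.

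Normal-glucose values exist for 6 members, because the table of HG against Ctrl holds only the 354 genes the authors marked, all with an unadjusted p under 0.05 and a fold change over 1.5. All 6 carried the mark for higher in HG, among 95 genes so marked, and none was among the 259 marked as lower. Since the mark chose these members, their glucose difference is described and not tested. The other 49 members have no Ctrl value here.

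ENSG00000157601 was at 24.6, 23.7 and 23.5 CPM in HG, against 15.7, 15.0 and 15.2 CPM in Ctrl. ENSG00000111335 was at 11.5, 11.3 and 12.1 CPM in HG, against 6.69, 7.40 and 6.59 CPM in Ctrl. ENSG00000135114 was at 69.7, 73.7 and 65.0 CPM in HG, against 44.2, 47.3 and 45.1 CPM in Ctrl. In these genes the HG libraries were all above the Ctrl libraries, by 1.57, 1.69 and 1.53 times in the means.

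ENSG00000119917 was at 114, 109.6 and 109 CPM in HG, against 79.7, 73.5 and 75.4 CPM in Ctrl, and ENSG00000107201 at 37.3, 29.6 and 40.8 CPM in HG, against 21.7, 23.5 and 23.2 CPM in Ctrl. ENSG00000137959, with few reads in every group, was at 1.07, 0.69 and 1.09 CPM in HG, against 0.57, 0.38 and 0.35 CPM in Ctrl. The groups did not overlap in any of the 6, but the marking on this same contrast favoured such separation. It therefore lends no support, nor do the authors' values that follow. The log2 fold changes in the authors' deposited table ran from 0.61 for ENSG00000119917 to 1.15 for ENSG00000137959, and its q-values from 2.73e-14 for ENSG00000157601 to 0.00481 for ENSG00000137959.

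Over all 4 groups, the mean of each of these 6 members was lowest or next to lowest in Ctrl, higher in HG and highest in HG-Res. HG-Res means were 2.5 to 5.22 times the Ctrl means. The HG-Res-SIRT7-Inh libraries lay below all Ctrl libraries in ENSG00000157601, ENSG00000111335, ENSG00000135114 and ENSG00000119917, at 0.836, 0.711, 0.583 and 0.682 times the Ctrl mean. In ENSG00000107201 and ENSG00000137959 the 2 groups overlapped, with 19.6, 23.4 and 38.6 CPM in HG-Res-SIRT7-Inh for ENSG00000107201. No file compares these 2 groups, and no test of them was made. How many of the other genes with Ctrl values lay below Ctrl in this way was not counted. The pattern is therefore not shown to be particular to the members.

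**Figure D4:**
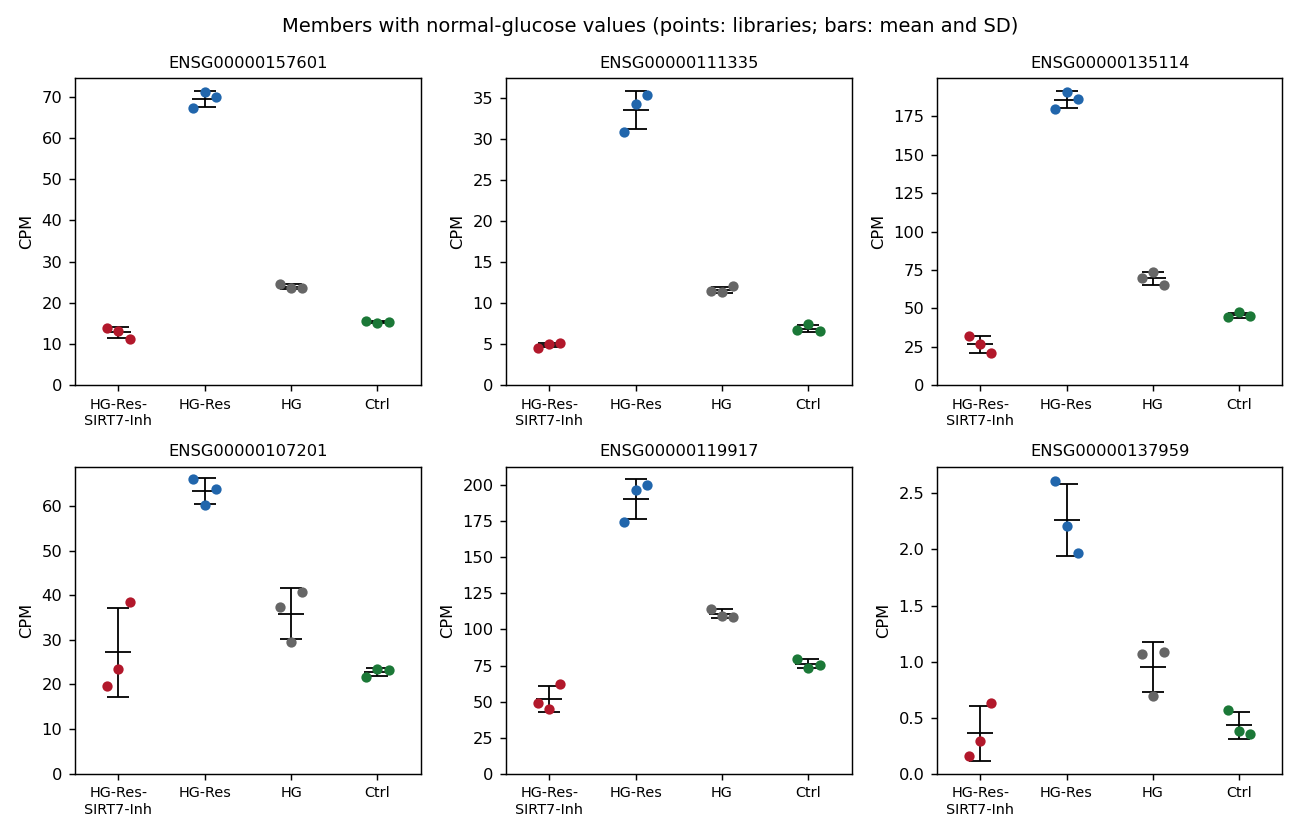
CPM of the 6 members with normal-glucose values in HG-Res-SIRT7-Inh, HG-Res, HG and Ctrl (points: libraries, bars: mean and SD, n = 3, axes from 0). HG-Res is the highest group in every panel, and in 4 panels the HG-Res-SIRT7-Inh libraries lie below all Ctrl libraries. Other genes with Ctrl values were not counted for this pattern.

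The spread between replicates was not the same across the list. In 26 of the 54 tested members HG-Res-SIRT7-Inh replicate 3 was the highest of its group while HG replicate 2 was the lowest HG library, a combination found in 35.3% of all tested genes. ENSG00000115415 showed it, with 169, 224 and 305 CPM in HG-Res-SIRT7-Inh, against 218, 140.1 and 244 CPM in HG, as did ENSG00000205413 (23.8, 42.0 and 62.1 CPM in HG-Res-SIRT7-Inh). In 16 members the reverse held, with HG-Res-SIRT7-Inh replicate 3 lowest and HG replicate 2 highest, against 36.7% of all tested genes. ENSG00000187608 was one of these, and ENSG00000185507 another, at 23.4, 20.9 and 10.7 CPM in HG-Res-SIRT7-Inh, against 17.7, 25.4 and 22.7 CPM in HG.

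Within HG-Res the members hardly varied, with SDs of 0.011 to 0.19 on the log2 scale, against 0.022 to 0.679 in HG-Res-SIRT7-Inh and 0.002 to 0.595 in HG. Summed over the 55 members, the level was 3096, 3076 and 2868 CPM in HG-Res-SIRT7-Inh, 5058, 5094 and 5081 CPM in HG-Res and 3387, 3492 and 3322 CPM in HG. The sum is carried by the members with the most reads and is given as a description. The part of the 2 libraries that stood apart in these SDs and sums was not measured, since neither was recomputed without them.

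**Figure D5:**
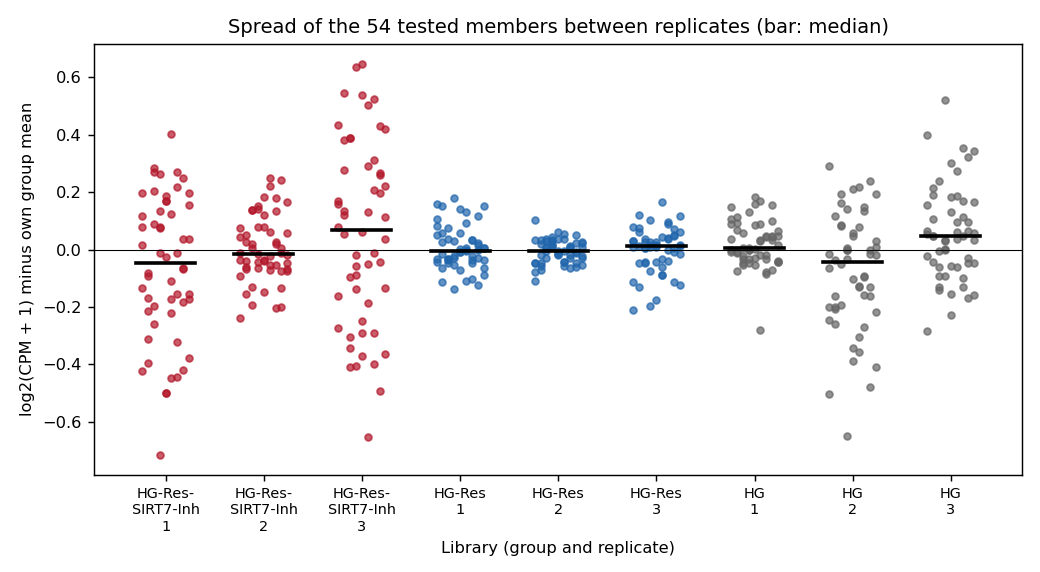
Deviation of each of the 54 tested members from its own group mean, in log2(CPM + 1), for the 9 high-glucose libraries (bar: median of the members). HG-Res libraries stay within -0.21 and 0.18, while HG-Res-SIRT7-Inh replicate 3 spans -0.65 to 0.65 and HG replicate 2 spans -0.65 to 0.29. Other libraries of these groups reach far as well: HG-Res-SIRT7-Inh replicate 1 spans -0.715 to 0.403 and HG replicate 3 spans -0.284 to 0.52.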

How the data were processed

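Poly(A)-selected RNA was sequenced as 150 bp pairs. Reads were handled with Trimmomatic and build rn6, per the submitters' processing notes. Aligner, counter, annotation and test were not given in the sources used here. The authors deposited, per library, values headed TPM that behave as CPM: they rise in steps of about 1 read with no length scaling. Whole reads could not be recovered within rounding, so no count model was run on them. Among the alternative fits was limma with voom weights on approximate reads, rounded from these values. The deposited log2 fold changes, p-values and q-values were quoted as the authors'.

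Values were used as log2(CPM + 1), with 0.5 CPM in 3 libraries as filter. One limma 3.58.1 fit (R 4.3.3, group means, intensity trend) covered the 9 high-glucose libraries, with Benjamini-Hochberg adjustment over 12854 genes. It was tried on simulated data with the same spread in every group and no library apart. That trial cannot vouch for the fit under the uneven spread of these groups. Fold changes of low genes are understated, and p-values measure the spread between the labelled replicates. No replicate pair was a duplicate by counting noise. Members and lists were chosen with earlier results of these data known. The members picked by rule for description were those with normal-glucose values and up to 8 per comparison. The latter had the largest called, non-overlapping changes and 1 CPM or more in the higher group. Some of these members are given by means or ratios alone, or without the values of every group. Further ones named as exceptions were picked after their values were seen. Gene lists by symbol and promoter sequences were not used here, because no table pairs the identifiers with symbols.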

Additional observations from a re-analysis of the deposited data

How the results depend on the processing

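Each count was recomputed under 19 alternatives. For HG-Res against HG (13 members called) it was 35 with 2 groups alone, 44 without both HG-Res-SIRT7-Inh replicate 3 and HG replicate 2, 8 at 2-fold or more and 42 by the authors' q-values. Leaving out 1 library gave 6 to 39. With the inhibitor against HG-Res (32) a change of 2-fold or more left 18, and leaving out 1 library gave 20 to 43. Without ENSG00000134326, kept by the filter for HG-Res alone, these are 31, 18 and 20 to 42. For HG-Res-SIRT7-Inh against HG (15) it was 29 without both libraries, 3 at 2-fold or more, and 10 to 23 without 1 library. Those fits without 1 library called 549 to 2717 of the 12854 tested genes in either direction. The other alternatives stayed within 1.5 times the main count. The replicate numbers showed no steady pairing of the samples. The correlation of same-numbered deviations ranged from -0.547 to 0.636, and that of differently numbered ones from -0.724 to 0.777. Both of these ends lay between HG-Res-SIRT7-Inh replicate 1 and an HG library, replicate 3 and replicate 2. With the replicate number as a block the counts were 10, 29 and 13. The share of all tested genes called in that fit was not counted, so these counts cannot be set against it. Of the single calls given above, those of ENSG00000119917, ENSG00000185745 and ENSG00000170581 for HG-Res against HG were not made with the block (limma adjusted p = 0.0678, 0.064 and 0.12). Nor was that of ENSG00000173821 for the inhibitor against HG (0.0685). The median change of the members stayed between 0.50 and 0.67, -0.74 and -0.61, and -0.33 and -0.18. No member past the threshold changed sign in any of the 17 fits that give a fold change. That was all but fixed beforehand, since the 2 groups compared did not overlap in any such member, and it lends no support. Of the 54 tested members, 3, 3 and 18 changed sign in at least 1 of those fits, all of them members that had not passed. The edgeR fit, planned only in case of raw counts, was not run, because whole reads could not be recovered. With 1 read worth about 0.03 CPM, the members below 1 CPM rest on few reads.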
